A study of Mus musculus with 4 samples.

Results

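The enzymes that build purine and pyrimidine nucleotides from simple precursors were followed across 4 arrays of the mouse cell line Ba/F3. The 10 enzymes were chosen by name to cover both routes, with earlier results of these data known. A gene counted as measured when at least 1 probe set carried its symbol and no other. This held for 9 of the 10, out of 19935 genes in all, and each of the 9 had 1 probe set. They were Ppat, Gart, Pfas, Paics, Adsl and Atic of purine synthesis, and Cad, Dhodh and Umps of pyrimidine synthesis. Impdh2, which encodes the enzyme that commits inosine monophosphate to guanine nucleotides, was not analysed here.

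Ba/F3 is an interleukin-3 (IL-3) dependent mouse pro-B cell line, and BCR-ABL is the oncogenic tyrosine kinase of chronic myeloid leukaemia, which can replace IL-3 in these cells. Total RNA from cells in logarithmic growth was measured on Affymetrix Gene 1.0 ST arrays. The groups were Ba/F3 cells with a doxycycline-inducible BCR-ABL, given doxycycline at 500 ng/ml together with IL-3 (n = 1), such cells given the same doxycycline but no IL-3 (n = 2, arrays A and B), and parental Ba/F3 cells with IL-3 (n = 1). The labels mention no doxycycline for the parental cells, and they state neither whether the inducible line is 1 clone nor whether A and B are independent cultures. The spread behind every p-value below comes from the gaps between A and B and may be technical. It is mostly shared over all genes, so a gene's own gap between A and B enters its p-value little. The stated question was which genes under BCR-ABL or growth factor control give resistance to imatinib.

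Purine synthesis assembles the ring atom by atom on an activated ribose phosphate and ends in inosine monophosphate, from which adenine and guanine nucleotides are made. Pyrimidine synthesis makes the ring first, as orotate, then attaches the ribose phosphate and ends in uridine monophosphate. In vertebrates several consecutive steps are carried by single multifunctional proteins. Both routes are known to be more active in dividing cells, which need nucleotides for RNA and DNA, and several of their genes are known targets of MYC.

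Every value is a log2 difference from the parental array, whose own value was 0 throughout. The log base is not stated and was taken as 2, so every fold below rests on that reading. The spacing of the stored values marks 7231 of the 19935 genes as low in signal on some array, and gives no level for the others. The spacing was checked on small values only, so a missing mark says less for larger ones, such as those of Gart. None of the 9 enzymes was so marked. Of markers of blood cells, 2 of 8 B-lineage, 5 of 8 mast cell and basophil and 8 of 9 neutrophil and monocyte genes were. So were 3 of 7 T and NK cell and 1 of 6 erythroid and megakaryocyte genes. The marks do not show whether any marker was present, and the lack of a call says little for marked genes. Over all genes the median was 0.01 on the array with IL-3, 0.00 on A and -0.08 on B. The SD over genes of A minus B was 0.196, and the median gap between A and B was 0.126 without regard to sign. In the comparison of BCR-ABL cells without IL-3 with parental cells, 5.19% of all genes were called higher and 2.87% lower. Among the markers, 0 of 8 B-lineage, 0 of 9 neutrophil and monocyte and 0 of 7 T and NK cell genes were called. At these shares 0 calls is unremarkable for lists this short, and does not show that the markers were unchanged. Of 8 mast cell and basophil genes 2 were called higher and 1 lower, and of 6 erythroid and megakaryocyte genes 0 were called higher and 2 lower. The mast cell gene called lower, Cma1, was marked as low in signal. Hdc, called higher, lost the call after centring each array on its median (limma adjusted p = 0.0554). The B-lineage differences ran between -0.40 and 0.17, the mast cell ones between -0.90 and 3.04 and the erythroid ones between -2.55 and 0.08. Their part in the results below was not tested. In such bulk RNA, fewer cells of a kind and less RNA per cell cannot be told apart.

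Stretches upstream of 3 enzyme genes are shown. Atic was planned because its window holds a CACGTG match, and Gart and Adsl were added because they had the largest increases among the enzymes. Each stretch holds the 250 bases before the annotated start, from RefSeq (GRCm38.p6), 5′ to 3′ on the strand of the gene. Capitals mark matches on either strand to CACGTG (the E-box bound by MYC with MAX), CCGGAAG (a core of ETS family sites) or GGGCGG (the GC box bound by SP1). Gart is on the minus strand at chr16:91646973-91647222, Adsl on the plus strand at chr15:80948240-80948489 and Atic on the plus strand at chr1:71556906-71557155. No other annotated gene overlaps these windows.
Gart: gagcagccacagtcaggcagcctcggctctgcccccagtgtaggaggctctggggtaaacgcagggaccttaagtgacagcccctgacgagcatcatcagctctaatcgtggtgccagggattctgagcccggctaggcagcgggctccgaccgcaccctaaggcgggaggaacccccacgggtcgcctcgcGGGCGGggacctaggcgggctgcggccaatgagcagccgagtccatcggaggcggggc
Adsl: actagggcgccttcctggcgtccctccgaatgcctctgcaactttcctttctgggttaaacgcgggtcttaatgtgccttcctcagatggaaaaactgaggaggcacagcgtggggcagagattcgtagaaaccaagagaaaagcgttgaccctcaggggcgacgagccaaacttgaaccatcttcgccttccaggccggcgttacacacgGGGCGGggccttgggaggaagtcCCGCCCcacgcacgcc
Atic: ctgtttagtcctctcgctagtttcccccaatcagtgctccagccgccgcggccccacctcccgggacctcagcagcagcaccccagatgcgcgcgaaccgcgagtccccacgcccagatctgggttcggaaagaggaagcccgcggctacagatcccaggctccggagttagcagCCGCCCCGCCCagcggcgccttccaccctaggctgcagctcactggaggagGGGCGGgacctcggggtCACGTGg

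Of the 9 measured enzyme genes 7 had a promoter window, which runs from 250 bases before to 50 bases after the start. GGGCGG was found in 7 of the 7 windows, and in 35.7% of all 32851 windows of that length. CACGTG was found in 2 of the 7, those of Paics and Atic, and in 7.15% of all windows. CCGGAAG was found in 2 of the 7, those of Ppat and Gart, and in 8.86% of all windows. The CCGGAAG and GGGCGG matches nearest the start of Ppat share letters. These are letter matches and show no binding.

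In BCR-ABL cells without IL-3, the purine enzymes Gart, Adsl, Pfas and Ppat and the pyrimidine enzyme Cad were higher than in parental cells with IL-3. The increase was 2.61-fold for Gart and between 1.55-fold and 1.77-fold for the other 4. The remaining 4 enzymes lay above the parental array on A and on B without passing the test. With IL-3 added to the BCR-ABL cells, each of the 9 enzymes lay below its values on A and on B, but none of these differences passed the test. The plot of the enzymes by array shows this order.

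**Figure D1:**
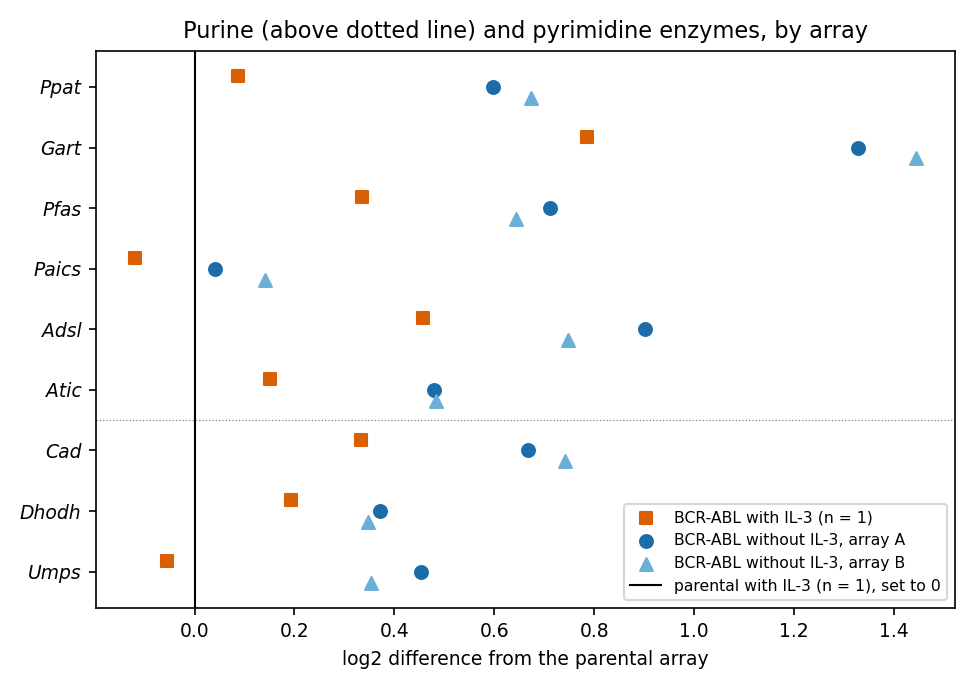
Log2 difference from the parental array (horizontal axis) for each of the 9 enzymes (rows), with 1 symbol for each array and a line at 0 for the parental array. The symbols of BCR-ABL cells with IL-3 lie left of those of A and B in every row, and only Paics and Umps have a symbol left of 0.

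The comparison of BCR-ABL cells without IL-3 (n = 2) with parental cells with IL-3 (n = 1) asked how the enzymes differ when the kinase stands in for the growth factor. By limma, fitted over all genes with Benjamini-Hochberg adjustment, 5 of the 9 enzymes were called higher at an adjusted p under 0.05 and 0 lower. Over all genes 5.19% were called higher and 2.87% lower. After centring, 3.2% of all genes were called higher and 1.5% lower, with the same 5 enzymes called. The median difference of the 9 was 0.64 on the log2 scale, beside a median of -0.04 over all genes. Both A and B lay above the parental array for 9 of 9 enzymes, as they did for 27.9% of all genes. Both lay below it for 0 of 9 enzymes and for 42.0% of all genes. Of 6 measured reference genes (Actb, Tbp, Ppia, Sdha, Ywhaz and Gusb), both A and B lay above the parental array for 4 and below it for 1. Among these 6, 1 was called higher and 0 lower. This was Gusb at 0.58 (limma adjusted p = 0.0228, 0.0439 after centring). The smallest difference that was called for any gene was 0.51. With 1 residual degree of freedom these adjusted p-values ran too small on average on simulated data when variances differed between genes. With equal variances the false calls met the threshold. The adjusted p after centring each array on its median is given beside each enzyme that was called. The fit after centring was not run on simulated data, so its p-values may run too small as well. The lone parental array has no spread of its own and was taken to vary like A and B. BCR-ABL, doxycycline and the lack of IL-3 changed together and cannot be told apart.

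Ppat encodes amidophosphoribosyltransferase, which catalyses the first committed step of purine synthesis and is inhibited by its end products. It stood at 0.09 on the array with IL-3, at 0.60 on A and at 0.67 on B, against 0 in parental cells. A and B lay close together and clear of the other arrays. The mean of A and B was 0.64 ± 0.05 (SD, n = 2), a 1.55-fold increase (SE 0.15 on the log2 scale, limma adjusted p = 0.0130, 0.0459 after centring).

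Gart encodes a trifunctional protein that carries the second, the third and the fifth steps, including a transfer of a formyl group from folate. It stood at 0.79 on the array with IL-3, at 1.33 on A and at 1.44 on B, against 0 in parental cells. All BCR-ABL arrays lay above the parental one, and A and B above the array with IL-3. The increase without IL-3 was 2.61-fold (log2 1.39, SE 0.15, limma adjusted p = 1.09e-05, 0.00824 after centring), and 99.5% of all genes had a lower difference. Gart was the 1 enzyme of the 9 at least 2-fold above the parental array on A and on B, which held for 0.903% of all genes.

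Pfas encodes the synthase of the fourth step, which takes nitrogen from glutamine. It stood at 0.34 on the array with IL-3, at 0.71 on A and at 0.64 on B, against 0 in parental cells. The array with IL-3 lay about midway between the parental one and the pair without IL-3. The increase without IL-3 was 1.60-fold (log2 0.68, SE 0.15, limma adjusted p = 0.00826, 0.0316 after centring).

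Adsl encodes adenylosuccinate lyase, which acts late in the route and again in the branch to adenine nucleotides. It stood at 0.46 on the array with IL-3, at 0.90 on A and at 0.75 on B, against 0 in parental cells. The gap of 0.155 between A and B was the widest among the 9 enzymes, and it was smaller than the distance of either from the other arrays. The increase without IL-3 was 1.77-fold (log2 0.83, SE 0.16, limma adjusted p = 0.00205, 0.0200 after centring).

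Atic encodes the bifunctional enzyme of the last steps to inosine monophosphate, of which the formyl transfer again uses folate. It stood at 0.15 on the array with IL-3 and at 0.48 on A and on B, against 0 in parental cells. A and B were 0.00304 apart, the narrowest gap among the 9. The difference without IL-3 was 0.48 (95% interval 0.16 to 0.80) and did not pass (limma adjusted p = 0.0636, 0.0779 after centring). Atic was the uncalled enzyme closest to the threshold and Ppat the called one closest to it.

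Paics encodes the bifunctional enzyme of the steps between Gart and Adsl. It stood at -0.12 on the array with IL-3, at 0.04 on A and at 0.14 on B, against 0 in parental cells. These values straddled the parental array. The difference without IL-3 was 0.09 (95% interval -0.23 to 0.42, limma adjusted p = 0.973), the smallest among the 9, and the interval leaves room for changes of the size of those of Dhodh or Umps.

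Paics and Ppat lie head to head on chromosome 5, with Ppat on the minus strand at chr5:76913249-76951578 and Paics on the plus strand at chr5:76951302-76967509, so that their annotated 5′ ends overlap by 277 bases. The CACGTG of the Paics window is shown with its flanks because it lies within the annotated body of Ppat, at chr5:76951087-76951116 on the plus strand, with the motif in capitals.
Paics: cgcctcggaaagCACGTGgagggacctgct
Despite this shared stretch the values of these genes differed. Ppat lay above Paics by 0.21 on the array with IL-3, by 0.56 on A and by 0.53 on B, a mean of 0.54 ± 0.02 over A and B (SD, n = 2). This difference between genes was not tested. Whether the probes of each gene respond equally to a given change in RNA was not analysed here.

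Cad encodes the large protein that joins carbamoyl phosphate synthetase, aspartate transcarbamylase and dihydroorotase, the opening steps of pyrimidine synthesis. It stood at 0.33 on the array with IL-3, at 0.67 on A and at 0.74 on B, against 0 in parental cells. A and B lay above the array with IL-3, and that lone array lay above the lone parental one. The increase without IL-3 was 1.63-fold (log2 0.70, SE 0.15, limma adjusted p = 0.00608, 0.0363 after centring).

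Dhodh encodes the mitochondrial dehydrogenase that makes orotate and passes electrons to ubiquinone. It stood at 0.19 on the array with IL-3, at 0.37 on A and at 0.35 on B, against 0 in parental cells. The difference without IL-3 was 0.36 (95% interval 0.04 to 0.68) and did not pass (limma adjusted p = 0.213).

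Umps encodes the bifunctional enzyme that turns orotate into uridine monophosphate. It stood at -0.06 on the array with IL-3, at 0.45 on A and at 0.35 on B, against 0 in parental cells. The array with IL-3 lay beside the parental one and apart from A and B. The difference without IL-3 was 0.40 (95% interval 0.08 to 0.73) and did not pass (limma adjusted p = 0.147).

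**Figure D2:**
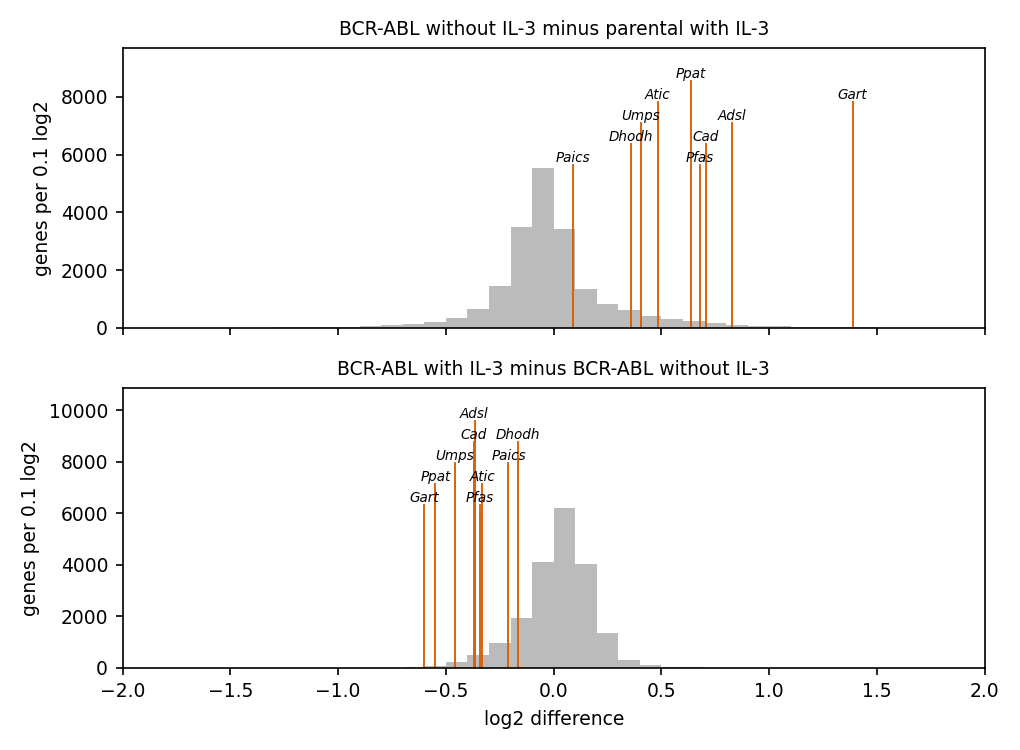
Histograms of all 19935 genes (grey, genes per 0.1 log2) by log2 difference for both comparisons, with a line at the value of each of the 9 enzymes; line heights only separate the names. In the upper panel Paics lies within the bulk of genes and the other 8 to its right, and in the lower panel all 9 lie left of 0.

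The comparison of BCR-ABL cells with IL-3 (n = 1) with BCR-ABL cells without it (n = 2) asked what the growth factor adds while the kinase is on. It shares arrays A and B with the comparison above, so a value that was high in them by chance pushes that comparison up and this one down. The array with IL-3 lay below both A and B for 9 of 9 enzymes, as it did for 25.5% of all genes, and above both for 0 of 9 enzymes and 39.9% of all genes. For 9 of 9 it lay below the nearer of them by more than the gap between A and B, which held for 12.5% of all genes. For the 6 reference genes it lay below both A and B in 5, and by more than that gap in 4, with a median difference of -0.10. The shares of all genes include the 7231 marked as low in signal, and 0 of the 9 enzymes were marked. The pattern is therefore not particular to the enzymes. The median difference of the 9 was -0.37, beside 0.03 over all genes. Against A alone it was -0.38 and against B alone -0.33, where the medians over all genes were -0.0002 and 0.07.

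No enzyme was called by limma in this comparison, where 0.00502% of all genes were called higher and 0.0% lower. At an unadjusted p under 0.05, 7 of the 9 enzymes were lower, as were 3.0% of all genes, and 901 genes (4.52%) passed this level in either direction. Gart had the largest difference of the 9, at -0.60 (95% interval -0.93 to -0.27, adjusted p = 0.448 by limma). Ppat followed at -0.55 (95% interval -0.87 to -0.23, adjusted p = 0.478) and Umps at -0.46 (95% interval -0.78 to -0.13, adjusted p = 0.768). Cad, Adsl, Pfas and Atic lay at -0.37, -0.37, -0.34 and -0.33. The smallest differences were those of Paics at -0.21 and Dhodh at -0.17, whose 95% intervals ran from -0.53 to 0.11 and from -0.49 to 0.16.

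**Figure D3:**
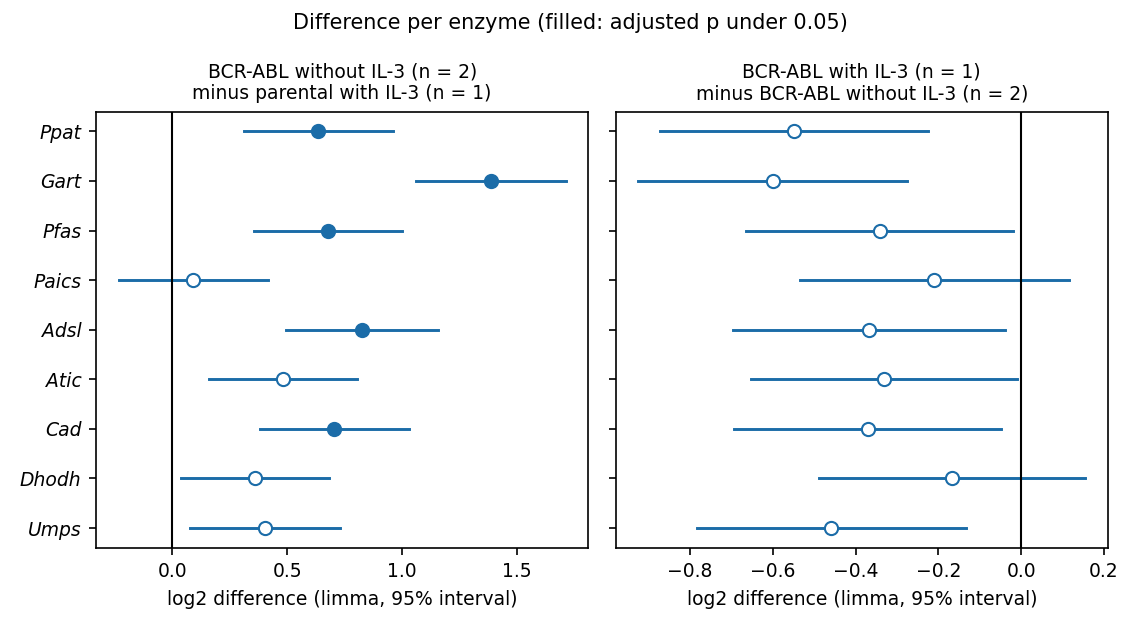
Log2 difference of each enzyme (points) with its 95% interval from limma (lines), filled where the adjusted p was under 0.05. The left panel, without IL-3 against parental, has 5 filled points, and the right panel, with IL-3 against without, has none although 7 of its 9 intervals lie below 0.

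BCR-ABL cells with IL-3 and parental cells with IL-3 had 1 array each, so their difference has no replicate check and no test. Of the 9 enzymes 7 lay above the parental array and 2, Paics and Umps, below it, where 52.6% of all genes lay above and 47.4% below. The median of the 9 was 0.19, beside 0.01 over all genes. Gart was 1.72-fold and Adsl 1.37-fold above the parental array, followed by Pfas at 1.26-fold and Cad at 1.26-fold. Dhodh was at 1.14-fold, Atic at 1.11-fold and Ppat at 1.06-fold. None of the 9 was 2-fold above the parental array, as were 1.1% of all genes, or 2-fold below it, as were 0.517%. The order of the enzymes was not the same on every array, since Ppat lay above Dhodh on A and B, and below it on the array with IL-3.

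The rest of nucleotide metabolism was described from 5 further lists of genes, in the comparison of BCR-ABL cells without IL-3 with parental cells. The counts of calls stand beside 5.19% of all genes called higher and 2.87% called lower. Of the genes for carbon unit supply 3 of 8 were marked as low in signal, and of the breakdown genes 8 of 19. In the other lists 0 genes were so marked. Of 9 other genes of purine synthesis 3 were called higher and 0 lower (median 0.48). Prps1, which makes the activated ribose phosphate that Ppat uses, stood at 0.74 (adjusted p = 0.00754, 0.0803 after centring, which ended the call). Impdh1, which encodes the isoenzyme of the product of Impdh2, stood at 0.65 (adjusted p = 0.0104) and the guanylate kinase gene Guk1 at 0.73 (adjusted p = 0.00483). Gmps, which encodes the next enzyme to guanosine monophosphate, stood at 0.49 and did not pass (adjusted p = 0.0763). Adss, which encodes the enzyme that supplies Adsl in the adenine branch, had the lowest value of this list at -0.08. The array with IL-3 differed little from A and B for Impdh1, with 0.59 against 0.63 on A and 0.67 on B.

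Of 10 genes for CTP and deoxynucleotides 3 were called higher and 0 lower (median 0.31). Ctps, which encodes the synthetase that turns UTP into CTP, stood at 0.79 on the array with IL-3, at 1.22 on A and at 1.44 on B, against 0 in parental cells, a 2.51-fold increase without IL-3 (adjusted p = 2.47e-05). Its isoenzyme gene Ctps2 had the lowest value of the list, at -0.46 on the array with IL-3, at -0.48 on A and at -0.49 on B, and its difference of -0.49 did not pass (adjusted p = 0.0607). Rrm2, the small subunit gene of ribonucleotide reductase, stood 2.74-fold higher (adjusted p = 8.27e-06) and the deaminase gene Dctd 1.94-fold higher (adjusted p = 0.000464). The thymidylate synthase gene Tyms stood at 0.35 and did not pass.

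Of 8 genes that supply or carry folate-bound carbon units 4 were called higher and 0 lower (median 0.43). Mthfd2, a mitochondrial dehydrogenase, was 3.46-fold higher (adjusted p = 1.27e-06). Mthfd1, whose cytosolic product makes the formyl folate that Gart and Atic use, was 2.02-fold higher (adjusted p = 0.000277). The serine hydroxymethyltransferase genes Shmt1 and Shmt2 were 1.96-fold and 1.79-fold higher (adjusted p = 0.000397 and 0.00355), and Shmt2 lost the call after centring (adjusted p = 0.0696). The lowest value was that of Mthfd1l at -0.24. Mthfd2 with IL-3, at 1.82, lay between its values without IL-3, at 1.62 on A and 1.96 on B, while Shmt1 stood at 0.52 with IL-3, against 0.95 on A and 0.99 on B.

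Of 11 salvage genes, whose products reuse bases and nucleosides, 1 was called higher and 0 lower (median 0.16). This was the thymidine kinase gene Tk1 at 0.52 (adjusted p = 0.0428, 0.0582 after centring, which ended the call). Hprt and Aprt, which encode the purine base salvage enzymes, stood at 0.38 and 0.41 and did not pass (adjusted p = 0.176 and 0.132). Uckl1 had the lowest value at -0.43.

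Of 19 genes of nucleotide breakdown and interconversion 3 were called higher and 3 lower (median -0.04). The uridine phosphorylase gene Upp1 was 6.54-fold higher (adjusted p = 2.89e-06), with 2.76 on the array with IL-3, 3.25 on A and 2.17 on B, a gap of 1.08 between A and B. The adenosine deaminase gene Ada was 1.91-fold higher (adjusted p = 0.000736). The purine nucleoside phosphorylase gene Pnp stood at 0.54 (adjusted p = 0.0362, 0.0652 after centring, which ended the call). The AMP deaminase gene Ampd3 was 3.49-fold lower (adjusted p = 4.00e-07), with -1.85 on the array with IL-3, -1.79 on A and -1.82 on B. The cytidine deaminase gene Cda was 2.27-fold lower (adjusted p = 0.000207) and the guanine deaminase gene Gda 1.80-fold lower (adjusted p = 0.00140). Among these 5 lists the breakdown genes were the ones with calls in both directions.

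**Figure D4:**
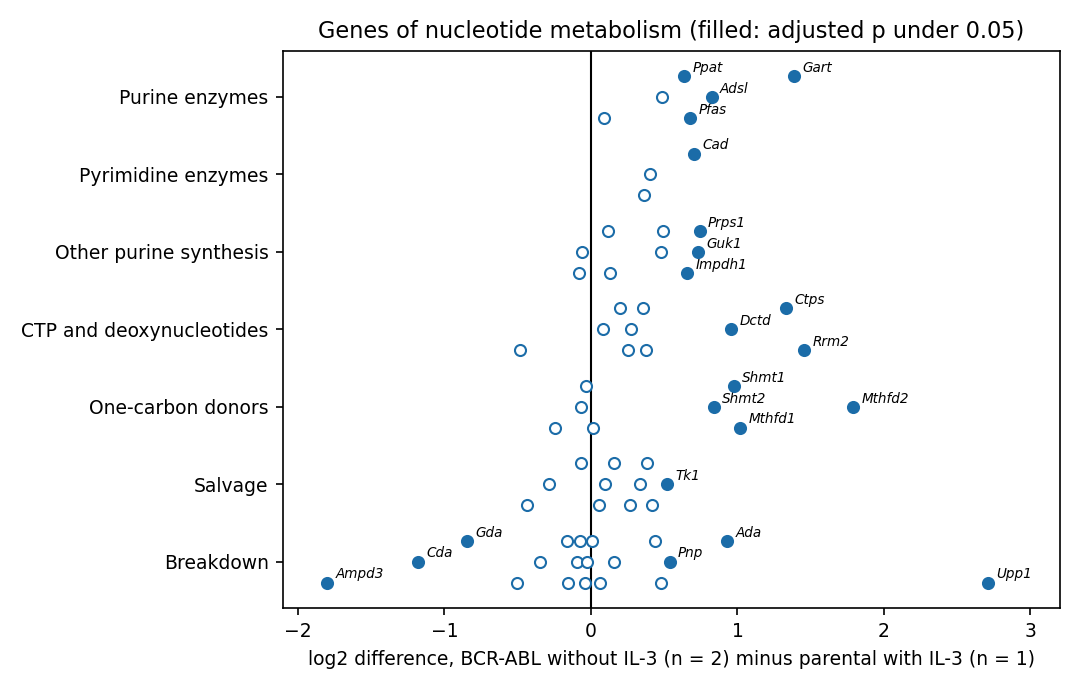
Log2 difference between BCR-ABL cells without IL-3 and parental cells with IL-3 (horizontal axis) for each measured gene (points, offset vertically for legibility) of the purine and pyrimidine enzymes and 5 further lists (rows). Filled and named points had an adjusted p under 0.05; they lie right of 0 in every row but the lowest, which holds 3 on each side.

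In the comparison of BCR-ABL cells with IL-3 with those without, 0 genes of these 5 lists were called by limma. The medians were -0.23 for other purine synthesis, -0.32 for CTP and deoxynucleotides and 0.01 for carbon unit supply. They were -0.14 for salvage and 0.05 for breakdown, beside -0.37 for the 9 enzymes. The median for carbon unit supply rests in part on genes marked as low in signal, Mthfd2l at 0.07, Aldh1l2 at 0.06 and Aldh1l1 at 0.04. Its unmarked genes were Shmt1 at -0.45, Mthfd1 at -0.44, Shmt2 at -0.36, Mthfd1l at -0.01 and Mthfd2 at 0.02. Of the list genes, Ada had the lowest difference at -0.61 (unadjusted p = 0.00105), followed by Tyms at -0.55 (unadjusted p = 0.00220). At an unadjusted p under 0.05, 2 of 9, 3 of 10, 2 of 8, 2 of 11 and 2 of 19 genes of the lists were lower. Over all genes this held for 3.0%.

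Outside all lists, the genes with the pattern most like the mean of the 9 enzymes over the 3 BCR-ABL arrays, by Euclidean distance, were Xylb (distance 0.0459), Rfc3 (0.0481) and Gemin4 (0.0619). The mean of the enzymes was 0.24 on the array with IL-3 and 0.62 on A and on B. Xylb stood at 0.22 on the array with IL-3, at 0.59 on A and at 0.65 on B. Rfc3 stood at 0.25, 0.59 and 0.66 on the same arrays, and Gemin4 at 0.23, 0.65 and 0.67.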

How the data were processed

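RNA of 4 Ba/F3 samples was hybridised to Affymetrix Gene 1.0 ST arrays, per the labels' protocols. The deposited values were read as log2 differences from the parental array: that column is 0 for all 28815 probe sets. Background correction, normalization, probe summarisation and the log base are not given in the sources used here. Base 2, usual for such arrays, was assumed: the values do not settle it. Of the small values 99.5% are whole multiples of 1 step of single-precision storage, and an odd multiple marks a gene with a low stored number on some array. The planned filter on mean level could not be set, and leaving out the marked genes was added after seeing the data. The number of arrays limits the precision.

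Probe sets with 1 symbol in the platform annotation (21780, against 1605 with several and 5430 not listed) were averaged per gene. All 4 arrays entered 1 limma fit (3.58.1, under R 4.3.3) with a mean for each of the 3 groups. The spread rests on 1 residual degree of freedom, the gap from A to B. The fit's prior had 16.4 degrees of freedom, and 5.02 after median centring of the arrays. The spread shared over genes therefore outweighed that of each gene. The code recovered known changes on simulated data. There the share of false calls met the threshold when all genes had equal variance, and ran above it on average when variances differed as the prior says, where the degrees of freedom of the prior were often estimated too high. That share was taken over all calls. The calls as a whole, and not only those near the threshold, may therefore carry more false positives than an adjusted p under 0.05 states. Tests were two-sided.

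The enzymes and lists were chosen with earlier results of these data known. The naming rule took all enzymes measured, the called genes and the extremes of each further list, and the 3 genes nearest in pattern. Gmps, Tyms, Hprt and Aprt fall outside it in part and were picked with their values known. For promoters the plan took those of neighbouring enzyme genes and those with the most CACGTG matches. The promoters of Gart and Adsl fall outside that plan and were picked with the values of these genes known. The alternatives were centring, the probe set with the closest A and B, a threshold of 0.1, a fit of the groups compared only, a robust prior, and leaving out A or B.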

Additional observations from a re-analysis of the deposited data

How the results depend on the processing

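The 5 calls among the enzymes without IL-3 against parental held after centring and with the robust prior. A threshold of 0.1 could only add calls, and it added Atic (0.48). The choice of probe set left the enzymes' own values unchanged, since each had 1 probe set. The fit of the groups compared only gave the same counts over all genes, so it was no further check. Over all genes, centring each array on its median gave 637 higher and 299 lower calls, 936 in all, against 1035 and 572. It moved the enzymes' median to 0.67, and leaving out A or B gave 0.60 to 0.64. With IL-3 against without, centring and the choice of the probe set with the closest arrays each left 0 genes called, and a threshold of 0.1 gave 2. The enzymes' median there was -0.41 after centring and -0.38 to -0.33 when A or B was left out. No direction of an enzyme turned under any alternative run. A fit without A or B has no residual degree of freedom and gives values only. The planned filter on mean level was not run, since the values are differences. Without the genes marked as low in signal, an alternative chosen after seeing the data, 948 genes were called higher and 504 lower, and the same 5 enzymes. No paired analysis was possible because the groups share fewer than 2 replicate numbers.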
